A study of Canis lupus familiaris with 28 samples.

Results

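The genes described here are 10 macrophage genes, CD163, CSF1R, CD14, C1QA, C1QB, C1QC, MSR1, AIF1, TYROBP and VSIG4, in primary canine oral malignant melanomas (OMMs). They were found by their symbols in the array annotation, and the Transcript cluster with the highest mean was taken for each gene. A Transcript cluster is the set of probes along 1 transcribed locus, and its value here is on the log2 scale. The 10 genes were read by 8 of the 32391 Transcript clusters, because 7 genes had 1 cluster of their own and C1QA, C1QB and C1QC shared 1 cluster annotated with all 3 symbols. That cluster is called the C1Q cluster below, and it cannot say which of the 3 genes its signal came from.

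The OMMs were 18 metastasising (M) tumours, from dogs with imaging and pathological evidence of metastasis that died of it, and 10 non-metastasising (NM) tumours, from dogs without such evidence that had no adjuvant therapy and were long survivors. Each tumour was a formalin-fixed, paraffin-embedded (FFPE) surgical biopsy taken before any adjuvant treatment, with 1 array per tumour and 1 tumour per dog. Golden Retrievers bore 4 M and 4 NM OMMs, cross breed dogs 6 M and 1 NM, Labrador Retrievers 3 M and 2 NM, and other pure breeds 5 M and 3 NM. Stage was higher in the M group and tissue blocks were older in the NM group, so metastatic status, stage and block age cannot be told apart. A biopsy holds melanoma cells, stroma, epithelium and leukocytes together, so fewer macrophages and less RNA per macrophage cannot be told apart either. The number of arrays and the signal over background limit the precision, since 74.2% of all Transcript clusters had a mean under 2.

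Macrophages of a tumour arise largely from blood monocytes, whose survival and differentiation depend on the CSF1 receptor. They take up debris, modified lipoproteins and haemoglobin complexes through scavenger receptors, make the C1q subunits that start the classical complement pathway, and recognise complement-coated particles through VSIG4. CD14 helps to detect bacterial lipopolysaccharide, TYROBP passes signals from receptors such as TREM2 to the kinase SYK through its ITAM motif, and AIF1 bundles actin in membrane ruffles.

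No macrophage cluster was called as different between M and NM OMMs, between Golden Retriever and other OMMs or between cross breed and other OMMs after adjustment over all Transcript clusters. The median Pearson r among the 8 clusters was 0.04 over the 28 tumours. AIF1 correlated with the leukocyte gene PTPRC, and VSIG4 with CSF1R and genes of fibroblasts. The pair of VSIG4 and CSF1R did not pass adjustment. Of 11 fibroblast genes 1 was called with VSIG4, and 0 with the first principal component of all clusters in the fit. Their median r with VSIG4 fell from 0.56 to 0.32 without the 2 tumours most extreme in VSIG4. TYROBP correlated with the brightness of the arrays, although not within cross breed OMMs for the percentage of bright clusters. Within Golden Retrievers, within Labrador Retrievers and within cross breed dogs, the C1Q cluster was higher in every M OMM than in every NM OMM. Such a separation in all 3 classes was shown by 4 of the 32391 Transcript clusters (0.0123%). The cross breed class held 1 NM OMM, and the separation was tested after the values had been seen. The other pure breeds did not show it, and there the mean of the C1Q cluster was lower in M OMMs. CD163 had a lower mean in M OMMs, a difference that did not pass adjustment.

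Signal was low for most of the genes. Mean log2 values over all 28 OMMs were 3.17 ± 0.34 for the C1Q cluster (SD), 2.09 ± 0.36 for VSIG4, 1.86 ± 0.26 for CD14 and 1.79 ± 0.71 for TYROBP. They were 1.76 ± 0.29 for CSF1R, 1.72 ± 0.26 for AIF1, 1.69 ± 0.17 for CD163 and 1.33 ± 0.20 for MSR1. The C1Q cluster stood at the 92.3rd percentile of the cluster means and MSR1 at the 22.5th percentile. For a view of background, 18 measured genes of a list restricted to other tissues, such as the pituitary and the liver, had means between 1.24 and 1.76 with a median of 1.44. By their means, CD163, AIF1 and MSR1 lay inside that range and CSF1R was at its upper end. The means of TYROBP, CD14, VSIG4 and the C1Q cluster lay above it. Medians over all tumours were 1.57 for TYROBP and 1.71 for CSF1R, both inside the range. The range describes signal over background and does not rank the genes by abundance, because probes differ in their response. Variation between tumours was widest for TYROBP, whose SD stood at the 89.0th percentile of all clusters, and narrow for CD163, at the 14.5th percentile.

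Complement was read by the C1Q cluster, whose 3 genes encode the chains of C1q, the molecule that binds immune complexes and dying cells. Its values in the 18 M OMMs ran from 2.74 to 4.21 with a median of 3.16, and in the 10 NM OMMs from 2.80 to 3.66 with a median of 2.999. The 2 ranges overlapped, although 11 of 18 M OMMs and 3 of 10 NM OMMs lay above the median of all tumours. The mean difference, M minus NM, was 0.17 (SE 0.13), with an adjusted p of 1 by limma. Over all Transcript clusters none was called between M and NM OMMs, that is 0% at an adjusted p under 0.05, and 825 clusters (2.55%) had an unadjusted p under 0.05. None of the 8 macrophage clusters was called and 1 had an unadjusted p under 0.05. The highest tumour, M replicate 6, came from a Dachshund, and without it the difference of the C1Q cluster was 0.11.

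The C1Q cluster was then compared within the 4 breed classes, the last of which pools other pure breeds that each had M or NM OMMs alone. In Golden Retrievers the 4 M OMMs lay between 3.11 and 3.18, and the 4 NM OMMs between 2.87 and 3.07. In Labrador Retrievers the 3 M OMMs lay between 3.07 and 3.31, and the 2 NM OMMs at 2.80 and 2.97. The 6 M OMMs of cross breed dogs lay between 2.87 and 3.80, above the single NM OMM at 2.85. M and NM values thus did not overlap in any of these 3 classes. Such a separation, with M above NM in all 3, was shown by 4 of the 32391 Transcript clusters (0.0123%), and the reverse by 2 (0.00617%). In single classes M lay above NM without overlap for 0.772% of clusters in Golden Retrievers, 11.3% in Labrador Retrievers and 14.9% in cross breed dogs. An exact two-sided permutation of status within the 3 classes, over 4900 arrangements of 20 tumours, gave p = 0.00408 for the difference of 0.28. This test was chosen after the values had been seen, and was run on all 8 clusters. The other 7 had p between 0.122 and 0.961. In limma with breed as a block, the same difference had an unadjusted p of 0.031 and an adjusted p of 0.998 over all clusters. The other pure breeds ran the opposite way, with a mean of 3.23 ± 0.59 in 5 M OMMs (SD) and 3.39 ± 0.24 in 3 NM OMMs. Array brightness also differed between tumours, and within the 7 cross breed OMMs the C1Q cluster had r = -0.92 with the percentage of clusters above a log2 value of 4. Its part in the separation was not tested.

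**Figure D1:**
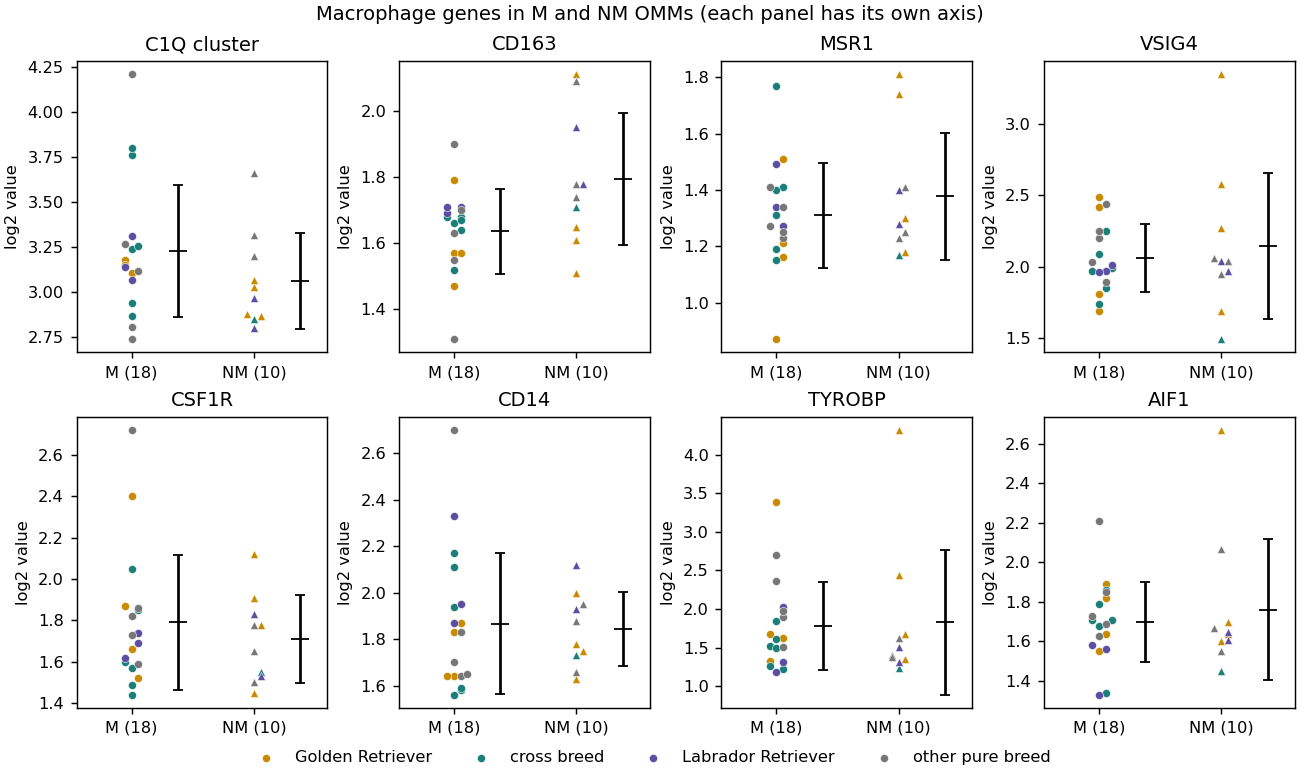
Log2 values (y axes, a separate scale in each panel) of the 8 macrophage clusters in 18 M OMMs (circles, left) and 10 NM OMMs (triangles, right), 1 point per tumour, coloured by breed class, with mean and SD as bars. M and NM ranges overlapped for all 8 clusters; the highest TYROBP value, 4.32, and the highest VSIG4 value, 3.35, belonged to the same NM OMM of a Golden Retriever.

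Among the scavenger receptors, CD163, which clears haemoglobin bound to haptoglobin, was the 1 member with an unadjusted p under 0.05. Its values in M OMMs ran from 1.31 to 1.90 with a median of 1.67, and in NM OMMs from 1.51 to 2.11 with a median of 1.76. The ranges overlapped, and an M OMM was the higher of the 2 in 25.6% of all pairs of an M and an NM tumour. The difference was -0.16 (SE 0.07), with an unadjusted p of 0.024 and an adjusted p of 1 by limma. A two-sided permutation test with 100000 resamples gave p = 0.0168. The share of clusters at an unadjusted p under 0.05, 2.55% over the array, is the background for this single value. The 2 highest tumours were NM replicate 9, a Golden Retriever at 2.11, and NM replicate 7, an Irish Terrier at 2.09. Leaving out any 1 tumour kept the difference between -0.19 and -0.12.

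The spread of CD163 was then examined within breeds. Outside the Golden Retriever, 6 NM OMMs had CD163 values between 1.71 and 2.09, and 13 of 14 M OMMs were below all of them. The exception was M replicate 6, the Dachshund OMM with the highest C1Q value, at 1.90. The share of all clusters that split in this way was not counted. The mean of CD163 lay inside the background range given above. The next M OMM, at 1.7099, was just below the lowest NM OMM, at 1.7114. M OMMs thus lay below NM OMMs without overlap in Labrador Retrievers and in cross breed dogs, as did 11.6% and 14.7% of all clusters, but not in Golden Retrievers, where 1.07% of clusters did so. Among Golden Retrievers, 4 M OMMs averaged 1.602 ± 0.14 and 4 NM OMMs averaged 1.72 ± 0.27 (SD), so that the difference of -0.12 (SE 0.15) was smaller than its error. The interaction of status with Golden Retriever was 0.07 (SE 0.14), with an adjusted p of 1 by limma. CD163 and the C1Q cluster had r = 0.24 with each other over the 28 tumours (permutation p = 0.22, rho = 0.13, permutation p = 0.512).

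MSR1, which binds modified lipoproteins and bacterial surfaces, had values from 0.87 to 1.77 in M OMMs with a median of 1.29. In NM OMMs it ran from 1.17 to 1.81 with a median of 1.29. Medians were equal to 2 decimals, and the difference of means was -0.07 (SE 0.08). Among Golden Retrievers, M OMMs averaged 1.19 ± 0.26 and NM OMMs 1.51 ± 0.32 (SD, n = 4 each). Among other dogs the 14 M OMMs averaged 1.35 ± 0.15 and the 6 NM OMMs 1.29 ± 0.10. The interaction was -0.38 (SE 0.17), with an unadjusted p of 0.0335 and an adjusted p of 1 by limma. For the interaction, 0% of all clusters were called and 3.07% had an unadjusted p under 0.05, against 0 and 1 of the 8 members. The lowest and the highest MSR1 value both came from Golden Retrievers, M replicate 15 at 0.87 and NM replicate 6 at 1.81.

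VSIG4, the complement receptor of resident macrophages, ran from 1.69 to 2.49 in M OMMs with a median of 1.997. Its values in NM OMMs were spread more widely, from 1.49 to 3.35 with a median of 2.04. The M range fell entirely inside the NM range, and the difference of means was -0.08 (SE 0.14). NM replicate 2, a Golden Retriever, gave the value of 3.35, and without it the difference was 0.05. Golden Retriever OMMs had VSIG4 values from 1.69 to 3.35 with a median of 2.34, against 1.49 to 2.44 with a median of 1.997 in other OMMs.

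The receptor for the growth factors CSF1 and IL34 was read by CSF1R. It ran from 1.44 to 2.72 in M OMMs, and from 1.45 to 2.12 in NM OMMs, with medians of 1.71 in both groups. M replicate 6, the Dachshund OMM, was highest at 2.72 and M replicate 15, a Golden Retriever, next at 2.40. The difference of means was 0.08 (SE 0.11), and 0.02 without M replicate 6. No member of the list of the CSF1 receptor axis and myeloid transcription factors was called between M and NM OMMs, and 1 of 10 had an unadjusted p under 0.05. That gene was RUNX1, a transcription factor of blood cell development, which was 0.19 higher (SE 0.09, unadjusted p = 0.0498, adjusted p = 1 by limma).

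CD14 ran from 1.56 to 2.70 in M OMMs with a median of 1.83. In NM OMMs it ran from 1.63 to 2.12, again with a median of 1.83. The upper end in M OMMs was set by M replicate 1, a Dachshund at 2.70, and M replicate 5, a Labrador Retriever at 2.33. The difference was 0.02 (SE 0.10), and -0.03 without M replicate 1. Of 8 measured genes for lipopolysaccharide recognition, which include the receptor TLR4 and its adaptor MYD88, none was called and none had an unadjusted p under 0.05.

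TYROBP, the ITAM adaptor, ran from 1.19 to 3.39 in M OMMs with a median of 1.62. In NM OMMs it ran from 1.24 to 4.32 with a median of 1.46. Few tumours carried its spread, namely NM replicate 2 at 4.32, M replicate 10 at 3.39, M replicate 9 at 2.70 and NM replicate 3 at 2.44. All but M replicate 9, a Cocker Spaniel, were Golden Retrievers. The difference of means was -0.05 (SE 0.27), and 0.23 without NM replicate 2. Of 13 measured genes of ITAM and Fc receptor signalling none had an unadjusted p under 0.05.

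AIF1, also called IBA1, ran from 1.33 to 2.21 in M OMMs with a median of 1.70. In NM OMMs it ran from 1.45 to 2.67 with a median of 1.65. NM replicate 6, a Golden Retriever, stood at 2.67, whereas the other 9 NM OMMs reached 2.07 at most. The difference was -0.06 (SE 0.10), and 0.04 without NM replicate 6.

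**Figure D2:**
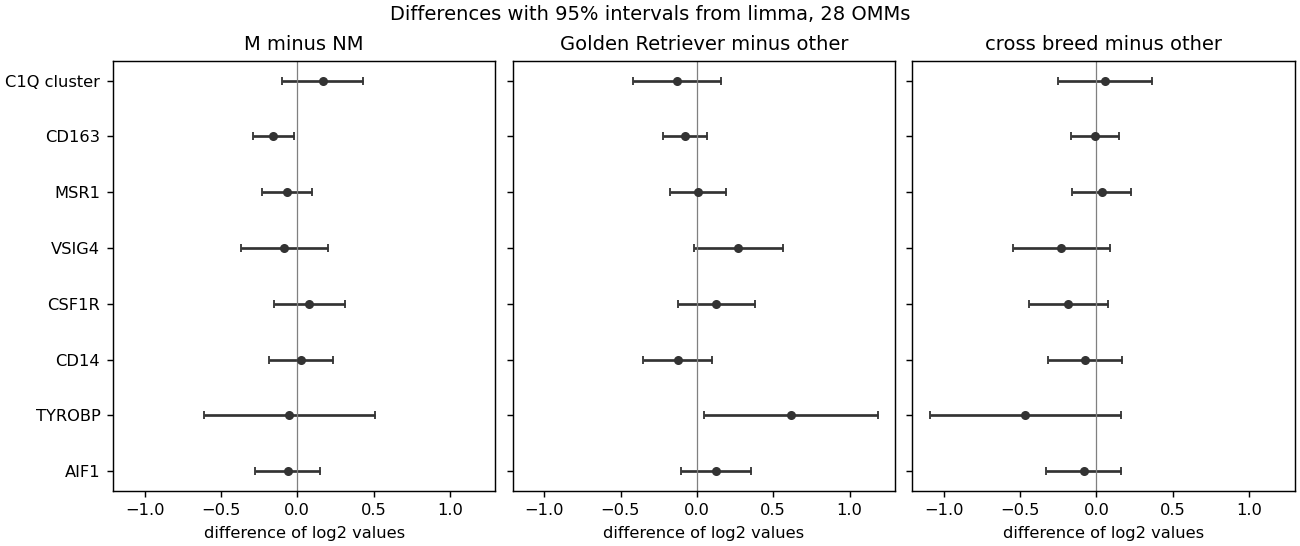
Difference of log2 values (x axes) with 95% intervals from limma for each macrophage cluster (y axis), for M minus NM, Golden Retriever minus other and cross breed minus other OMMs, over 28 tumours. The interval of CD163 for M minus NM, -0.29 to -0.02, and that of TYROBP for Golden Retriever minus other, 0.05 to 1.18, exclude 0 before adjustment; no difference passed adjustment over all clusters.

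Genes of the macrophage pathways around these members were compared between M and NM OMMs as well. Lists of scavenger receptors, complement, lysosomal and antigen-presenting genes, NADPH oxidase, chemoattractants, inflammatory and alternative activation and of other cell types held 206 measured clusters. None was called between M and NM OMMs and 4 (1.94%) had an unadjusted p under 0.05, against 2.55% of all clusters. These were RUNX1 with a higher mean in M OMMs, and the chemokine CXCL12 at -0.69 (SE 0.31), the tetraspanin CD37 at -0.32 (SE 0.15) and the lymphoid transcription factor IKZF1 at -0.28 (SE 0.14). Medians of CD37 were 1.94 in M and 1.92 in NM OMMs, while its highest values were 2.30 and 3.52. Medians of IKZF1 were 1.39 in M and 1.46 in NM OMMs, while its highest values were 1.66 and 2.85. Of 15 scavenger and phagocytic receptors 4 were higher in M OMMs, with a median difference of -0.06, while the median of all clusters was 0.0007. Of 12 complement genes 2 were higher, with a median of -0.05, although the C1Q cluster itself was higher in M OMMs. Such a lean was not particular to macrophage lists. Higher means in M OMMs were found for 1 of 12 T and NK cell genes (median -0.06) and 1 of 9 B and plasma cell genes (-0.11). The same held for 5 of 18 genes restricted to other tissues (-0.04). Neutrophil genes, with 6 of 8 higher (0.15), and melanocyte genes, with 7 of 11 (0.11), leaned the other way.

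Golden Retriever OMMs differed from other OMMs in 824 Transcript clusters, 2.54% of all, and no macrophage cluster was among them. The tumours of this breed were also brighter on the array. In the study's supplement, most Golden Retriever OMMs had a lower quantification cycle in the PCR assay of RNA integrity than every cross breed OMM. RNA integrity was in no fit here, and its part in the breed contrasts and in array brightness was not tested. Between 4.87 and 6.40% of clusters had a log2 value above 4 in Golden Retriever OMMs, with a median of 6.01%, against 4.30 to 6.04% with a median of 4.88% in the other OMMs. With this percentage or the first principal component of all clusters in the fit, no cluster was called at all.

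TYROBP ran from 1.33 to 4.32 in Golden Retriever OMMs with a median of 1.68. In the other OMMs it ran from 1.19 to 2.70 with a median of 1.51. The ranges overlapped broadly, and a Golden Retriever OMM was the higher in 70.0% of pairs. The difference, with status in the fit, was 0.62 (SE 0.28, unadjusted p = 0.0342, adjusted p = 0.141 by limma), and a permutation within status gave p = 0.0337. It was 0.34 without NM replicate 2, and 0.11 (SE 0.29) with the first principal component as a covariate. The matching difference of VSIG4 was 0.27 (SE 0.14, adjusted p = 0.201), or 0.08 (SE 0.16) with that covariate. For comparison, 29.4% of all clusters had an unadjusted p under 0.05 in this contrast, and 1 of the 8 members had one. CD163, CD14 and the C1Q cluster had lower means in Golden Retriever OMMs, with differences from -0.13 to -0.08, while the median of all clusters was -0.07.

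Lysosomal and antigen-presenting genes were read in the same contrast. Of 14 measured, 13 had higher means in Golden Retriever OMMs, 8 of them with an unadjusted p under 0.05, and the median difference was 0.43. For comparison, 29.4% of all clusters and 32.5% of the 206 clusters of the lists had an unadjusted p under 0.05. CTSB, a lysosomal protease, was called with a difference of 0.95 (SE 0.26, adjusted p = 0.0499 by limma). CTSS, the cathepsin that trims the invariant chain for MHC class II, differed by 0.79 (SE 0.24, adjusted p = 0.0566), and CD74, the invariant chain itself, by 0.96 (SE 0.34, adjusted p = 0.0833). MRC1, the mannose receptor of macrophages, differed by 1.13 (SE 0.39, adjusted p = 0.0767). LCP1, an actin-bundling protein of leukocytes, was called at 0.73 (SE 0.14, adjusted p = 0.028). Over all lists 4 of 206 measured clusters were called, while 2.54% of all Transcript clusters were. Besides CTSB and LCP1, the calls were 1 melanocyte gene and 1 gene of oral epithelium. Markers of other tissues moved with the same breed. Of 11 fibroblast genes 11 had higher means, with a median of 0.57, as did 10 of 11 melanocyte genes, with a median of 0.84, and 10 of 11 genes of oral epithelium, with a median of 0.72. The 18 measured genes restricted to other tissues all had lower means, with a median of -0.13. The calls of CTSB and LCP1 were lost when the first principal component or the percentage of clusters above 4 was in the fit, since 0 clusters were then called.

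Cross breed OMMs differed from other OMMs in 6281 clusters, 19.4% of all, and again in none of the 8 macrophage clusters. At an unadjusted p under 0.05 it was 36.9% of all clusters, and again 0 of the 8. Their arrays had 4.30 to 4.91% of clusters above 4, with a median of 4.68%. TYROBP ran from 1.22 to 1.84 in the 7 cross breed OMMs with a median of 1.498, and from 1.19 to 4.32 in the other OMMs with a median of 1.63. VSIG4 ran from 1.49 to 2.25 with a median of 1.97 in cross breed OMMs, and from 1.69 to 3.35 with a median of 2.04 in the others. The differences were -0.47 (SE 0.31) for TYROBP, -0.23 (SE 0.16) for VSIG4 and -0.18 (SE 0.13) for CSF1R, with adjusted p of 0.265, 0.280 and 0.294 by limma. With the first principal component in the fit the difference of TYROBP was 0.41 and that of VSIG4 0.08, both of opposite sign, and 3 clusters were called in all.

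The 8 clusters were then compared with each other across the 28 tumours. Of the 28 pairs the median Pearson r was 0.04, with a range from -0.28 to 0.56, and 2 pairs (7.14%) were above 0.5. Over all pairs of Transcript clusters the median was 0.03 and 6.19% were above 0.5. Genes of 1 cell type did correlate on these arrays for some other types, with a median r of 0.65 among 11 melanocyte genes, 0.62 among 11 genes of oral epithelium, 0.54 among 11 fibroblast genes and 0.39 among 8 leukocyte genes. The first 3 of these lists had median SDs of 0.99, 0.88 and 0.85, against SDs from 0.17 to 0.71 for the macrophage clusters. Median r was lower for B and plasma cell (0.36), endothelial (0.23), T and NK cell (0.12), mast cell (0.06) and neutrophil genes (-0.12). Among the 18 genes restricted to other tissues it was 0.29, and -0.006 after the first principal component. Among 11 other macrophage markers the median was 0.01, and among 15 scavenger and phagocytic receptors also 0.01. Among 14 lysosomal and antigen-presenting genes it was 0.31, and 0.07 after the first principal component. No tumour had all 8 macrophage clusters above their medians. The most was 7, in M replicate 15, and the fewest was 1, in NM replicate 10.

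CSF1R and VSIG4 formed the pair with the highest r, 0.56 (permutation p = 0.00685), with a Spearman rho of 0.64 (permutation p = 0.0003). Without the 2 tumours farthest from the median of CSF1R, r was 0.70, and after removal of the first principal component it was 0.48. After removal of status and breed class r was 0.53. In the fit of all other clusters on CSF1R, VSIG4 had an adjusted p of 0.395 by limma. TYROBP and VSIG4 had r = 0.53 (permutation p = 0.0141) but rho = 0.28 (permutation p = 0.143), and the relation rested on 2 tumours, since r was 0.27 without the 2 tumours most extreme in TYROBP. CSF1R and the C1Q cluster had r = 0.41 (permutation p = 0.0323), which was 0.03 without the 2 tumours most extreme in CSF1R, among them M replicate 6. MSR1 and AIF1 had r = 0.42 (permutation p = 0.0326), which was 0.05 without the 2 tumours most extreme in MSR1. These p-values are unadjusted and stem from 28 pairs.

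**Figure D3:**
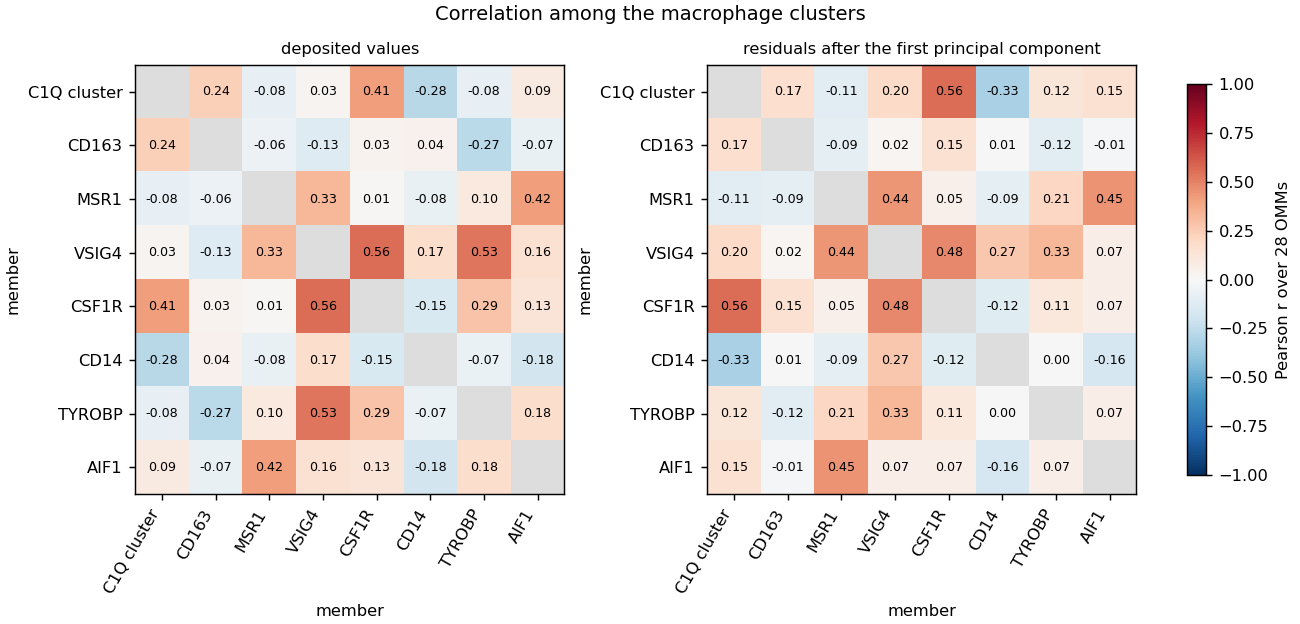
Pearson r over 28 OMMs between each pair of the 8 macrophage clusters (both axes), for the deposited values on the left and for residuals after the first principal component on the right. CSF1R with VSIG4 (0.56) and TYROBP with VSIG4 (0.53) were the 2 pairs above 0.5 on the left; after the component CSF1R with the C1Q cluster was highest, at 0.56.

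The partners of each member among all Transcript clusters were found next, with the level of the member as a covariate in limma and adjustment over the other 32390 clusters. AIF1 was associated with 31 clusters (0.0957%), all positively, and with 40 (0.123%) when the first principal component was added. Among the 5 genes most like AIF1 were PTPRC, which encodes the leukocyte antigen CD45, CD83, a surface protein of activated dendritic cells and lymphocytes, and GBP1, an interferon-induced GTPase. PTPRC ran from 1.55 to 2.67 in M OMMs with a median of 1.84, and from 1.54 to 4.10 in NM OMMs with a median of 1.81. NM replicate 6, the tumour with the highest AIF1, was also the one at 4.10. AIF1 and PTPRC had r = 0.75 (permutation p = 0.00034) and rho = 0.47 (permutation p = 0.0117), with an adjusted p of 0.0113 by limma, and 0.0114 with the first principal component. Without the 2 tumours most extreme in AIF1, NM replicate 6 and M replicate 9, r was 0.59, and after status and breed class it was 0.73. That value of 0.59 still holds NM replicate 7, the tumour with the next highest PTPRC, 3.55, and an AIF1 value of 2.07. The r without NM replicates 6 and 7 was not computed. CD83 had r = 0.74 and rho = 0.55 with AIF1 (adjusted p = 0.0135). The gene with the highest r was TAF1D, a subunit of a transcription factor of RNA polymerase I, at 0.87 (rho = 0.70, adjusted p = 9.69e-06).

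Of 8 measured leukocyte genes 4 had r above 0.5 with AIF1, against 0.698% of all clusters. These were PTPRC, CD37 (0.65), CD53 (0.61) and IKZF1 (0.56, but rho = 0.06), while CORO1A, an actin-binding protein of leukocytes, had -0.16. Median r of AIF1 with this list was 0.51, and 0.56 after the first principal component. T and NK cell genes had a median r of 0.01 with AIF1, and B and plasma cell genes 0.12. After the first principal component these medians were 0.13 and 0.355. In the deposited values 2 of 12 T and NK cell genes and 0 of 9 B and plasma cell genes had r above 0.5. Since the leukocyte genes correlated with each other, they are not separate observations.

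VSIG4 was associated with 84 clusters (0.259%), and with 0 when the first principal component was added. LGMN, the lysosomal protease legumain, was among its 5 closest genes, with r = 0.76 (permutation p = 5e-05), rho = 0.56 (permutation p = 0.00195) and an adjusted p of 0.0078, or 0.274 with the component. COL14A1, a collagen of connective tissue, had r = 0.76. Of 11 fibroblast genes 9 had r above 0.5 with VSIG4, against 2.70% of all clusters, with a median of 0.56. FBLN1, an extracellular matrix glycoprotein, had r = 0.66 (permutation p = 0.00048), rho = 0.49 (permutation p = 0.00907) and an adjusted p of 0.0387. It had the highest r of the 11, was the only 1 called, and was named after the values were seen. With the component its adjusted p by limma was 0.685, and without the 2 tumours most extreme in VSIG4 its r was 0.35. The fibroblast genes correlated with each other, so they are not separate observations. COL1A1, the main chain of type I collagen, had r = 0.63 (permutation p = 0.00108) but rho = 0.35 (permutation p = 0.0694). NM replicate 2 was highest in VSIG4 and in the mean of the 11 fibroblast genes, at 4.57. Without the 2 tumours most extreme in VSIG4 the median r with the fibroblast genes was 0.32. After the first principal component the median was 0.44. TYROBP had a median r of 0.44 with the same list, which was 0.14 after the component.

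**Figure D4:**
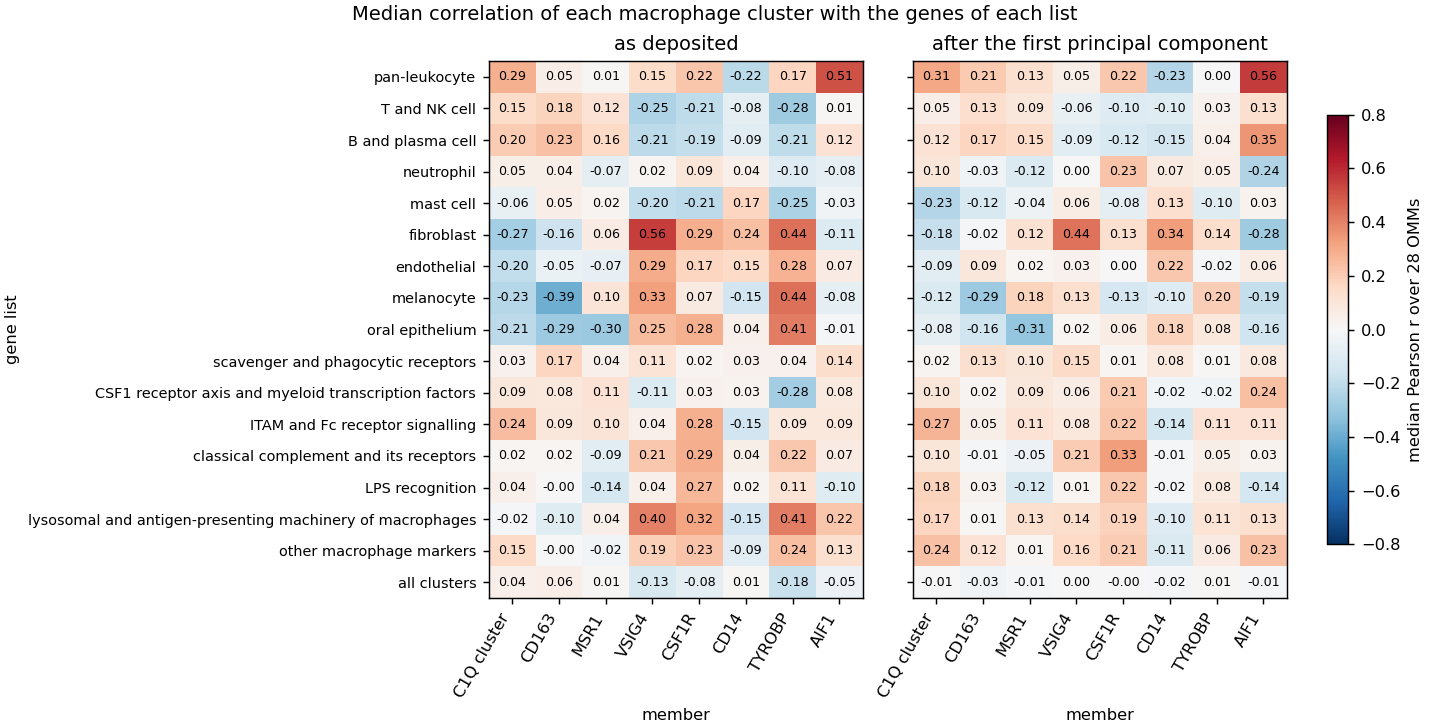
Median Pearson r over 28 OMMs of each macrophage cluster (x axes) with the measured genes of 16 gene lists and with all clusters (y axis), for the deposited values on the left and after the first principal component on the right. AIF1 with leukocyte genes (0.51 and 0.56) and VSIG4 with fibroblast genes (0.56 and 0.44) had the highest medians in both panels.

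TYROBP was associated with 5900 clusters, 18.2% of all, and with 22 (0.0679%) once the first principal component was in the fit. Its r with that component was 0.62 (permutation p = 0.0001) and its rho 0.59 (permutation p = 0.0012), and 28.9% of all clusters correlated as strongly with it in size. With the percentage of clusters above 4, r was 0.58 (permutation p = 0.0009). Within breed classes r with the component was 0.54 in Golden Retriever OMMs, 0.33 in cross breed OMMs and 0.70 in other pure breeds. With the percentage it was 0.54, -0.27 and 0.46 in the same classes, so the sign turned in cross breed OMMs. The genes nearest to TYROBP were FAM160B1 (r = 0.87), BIRC6 (0.87), KIF13B (0.85), ADAM23 (0.84) and MED23 (0.84), none of them on the gene lists used here. BIRC6, a ubiquitin ligase that restrains apoptosis, had an adjusted p of 1.47e-05, and 0.00884 with the component. VSIG4 had r = 0.49 with the component, but 0.29 without the Golden Retriever OMMs.

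CD163, CSF1R, CD14, the C1Q cluster and MSR1 were associated with no cluster after adjustment (0% each), and CD14 with 4 (0.0123%) when the first principal component was added. Their nearest genes are therefore values without a call. For CD163 it was TGM2, a transglutaminase used as a mark of alternatively activated macrophages, with r = 0.73 (permutation p = 3e-05), rho = 0.68 (permutation p = 8e-05) and r = 0.63 without the 2 most extreme tumours, but an adjusted p of 0.393. TGM2 ran from 1.66 to 2.25 in M OMMs with a median of 1.99, and from 1.58 to 2.34 in NM OMMs with a median of 2.14. For CSF1R it was ANPEP, the myeloid and stromal aminopeptidase CD13, with r = 0.73, rho = 0.50 and an adjusted p of 0.0565. For CD14 it was INHBA, a subunit of activin, with r = 0.75, rho = 0.59 and an adjusted p of 0.114, or 0.0493 with the component. For the C1Q cluster it was TNFRSF18, the T cell costimulatory receptor GITR, with r = 0.69, rho = 0.40 and an adjusted p of 0.232. MSR1 was nearest to 2 clusters with locus names alone, at r = 0.65 and 0.64, both with an adjusted p of 1. The first 4 pairs had a lower r without the 2 most extreme tumours, of 0.63, 0.43, 0.44 and 0.55 in the order given.

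**Figure D5:**
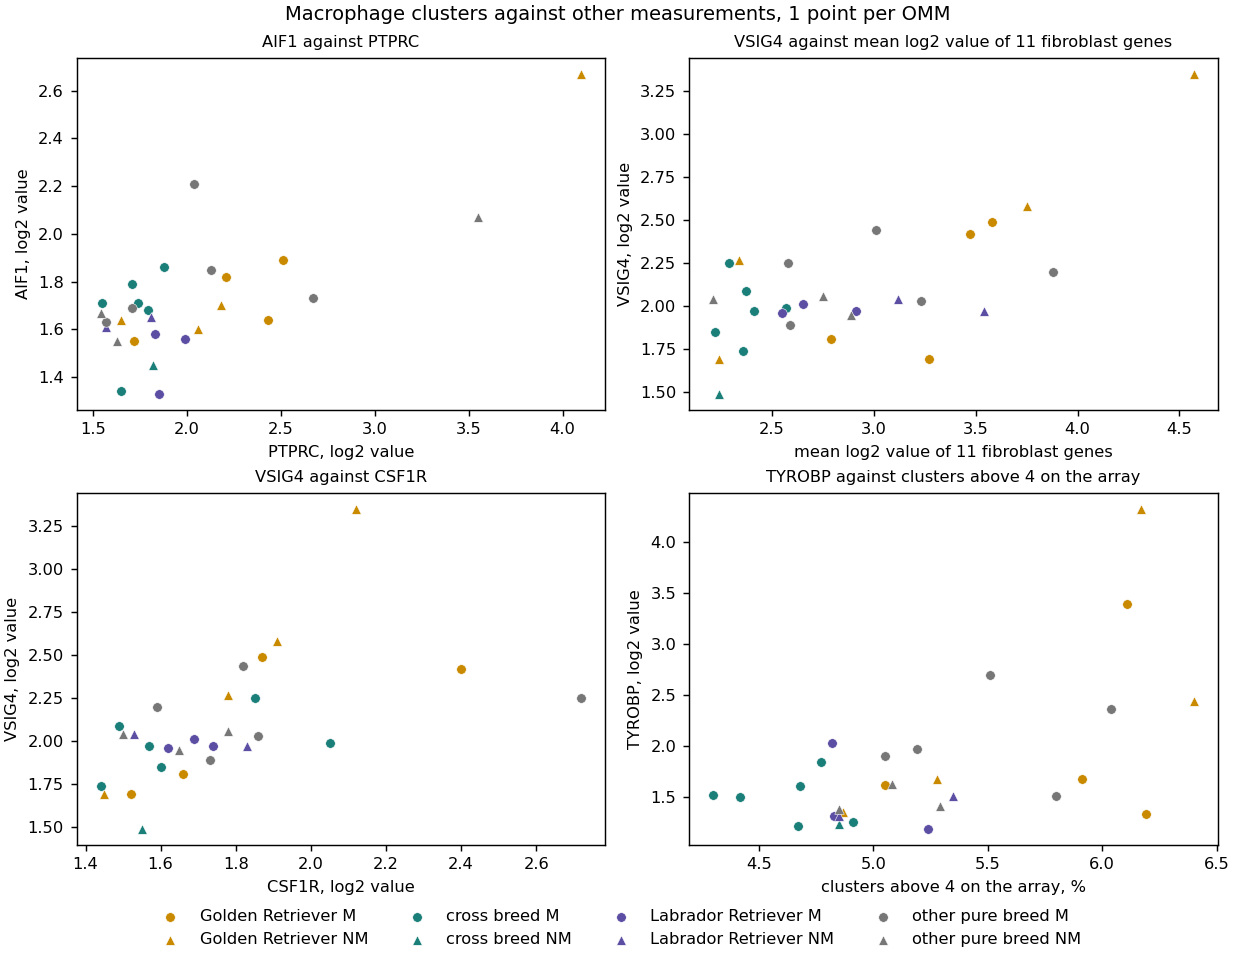
Log2 values of AIF1, VSIG4 and TYROBP (y axes) against PTPRC, the mean of 11 fibroblast genes, CSF1R and the percentage of clusters above 4 on the array (x axes), 1 point per OMM, circles for M and triangles for NM, coloured by breed class. NM replicate 6 stands alone at the top right for AIF1 (2.67) and NM replicate 2 at the top for VSIG4 (3.35) and TYROBP (4.32), both Golden Retrievers.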

How the data were processed

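Total RNA of 28 FFPE biopsies was amplified and hybridised to canine gene arrays. Per the labels and the study's methods, the authors left out arrays whose quality values lay far from the mean and processed the others with Affymetrix Expression Console 1.3 by RMA, which quantile normalises, log2-transforms and summarises probe signals. The deposited values are these log2 gene-level values, with no detection calls, so the authors' filter on detected clusters was not repeated and low signal compresses differences. A genome build is not given in the sources used here. Symbols came from the platform annotation, updated through gene identifiers to RefSeq names; 16878 clusters had 1 symbol, 289 several and 15224 none. C1QA, C1QB and C1QC neighbour each other on the RefSeq assembly. Groups and breeds came from the labels, and nothing else about a dog was used.

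Contrasts were fitted with limma 3.58.1 in R 4.3.3 (lmFit and eBayes) over all 32391 clusters, with p adjusted by Benjamini-Hochberg and called under 0.05: M against NM without covariates, each breed contrast with status, and status by Golden Retriever. Single values were also tested by two-sided permutation (100000 resamples), which for breeds kept status fixed. The M against NM fit was also run on simulated data. There the clusters were drawn independently, without the variation that arrays share, so that run does not cover the breed fits. Correlations used Python 3.11.15 with numpy 2.4.6 and scipy 1.17.1. The first principal component held 34.9% of the variance and had r = 0.93 with the percentage of clusters above 4. Members and lists were chosen with earlier results of these data known. Genes were named by rule: the members, the 5 clusters most correlated with each member that have 1 symbol and a mean above the median, up to 4 genes per list with the smallest p in the M against NM and Golden Retriever fits, and the brightest macrophage marker of each list. FBLN1 lies outside that rule, and it and the list of genes restricted to other tissues were chosen after values were seen. Lists covered macrophage functions, leukocytes, lymphocytes of the T, NK, B and plasma lineages, neutrophils, mast cells, fibroblasts, endothelium, melanocytes and oral epithelium. The alternatives varied normalisation, weights, filters, covariates, blocks and tumours.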

Additional observations from a re-analysis of the deposited data

Results flagged for a closer look

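Values of the 8 macrophage clusters were examined for tumours far from the rest of their group by Dixon's criterion in the NM OMMs and in the 4 breed classes, which made 40 groups of values. Chance marks about 5% of such groups, and 8 (20%) were marked here; the groups share tumours and are not independent. Among NM OMMs, NM replicate 2 had a TYROBP value of 4.32 while the other 9 lay between 1.24 and 2.44. NM replicate 6 had an AIF1 value of 2.67, against 1.45 to 2.07 in the other NM OMMs and 1.55 to 1.89 in the other Golden Retriever OMMs. In the other pure breeds, M replicate 6 had a CSF1R value of 2.72, against 1.496 to 1.86, and M replicate 1 a CD14 value of 2.70, against 1.64 to 1.95; both were Dachshunds. In cross breed OMMs, M replicate 13 had an MSR1 value of 1.77, against 1.15 to 1.41, and M replicate 3 a CD163 value of 1.52, against 1.64 to 1.71. In Labrador Retriever OMMs, M replicate 2 had an AIF1 value of 1.33, against 1.56 to 1.65. The causes were not tested.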

How the results depend on the processing

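No macrophage cluster was called in any contrast under any alternative. Between M and NM OMMs no cluster was called under any alternative over several breeds or within Golden Retrievers, and 3 were called within Labrador Retrievers, all lower in M OMMs. The number of clusters called for Golden Retriever OMMs was 241 with a trended robust prior, 7182 with array weights, 104 after quantile normalising again, 2214 among clusters brighter than the median, 83 without status, and 0 with the first principal component, with the percentage above 4 or without cross breed OMMs. It lay between 2 and 4908 with 1 tumour left out. For cross breed OMMs it was 2594 among clusters with 1 symbol, 3 with the component, 12 with the percentage and 2144 without Golden Retriever OMMs, and between 3771 and 7695 with 1 tumour left out.

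Signs of small differences turned. Without Golden Retriever OMMs, M minus NM was 0.056 for MSR1, 0.025 for AIF1, 0.294 for TYROBP and 0.123 for VSIG4. TYROBP was 0.016 with array weights, 0.024 with the percentage, 0.035 with breed class as a random block, 0.066 with the replicate number as a block and 0.025 without cross breed OMMs. For Golden Retriever minus other, the percentage gave 0.016 for CD163 and -0.027 for CSF1R. For cross breed minus other, CD163 was 0.008 in M OMMs alone, the C1Q cluster was -0.014 after median centring, -0.166 with the component and -0.117 with the percentage, MSR1 was -0.035 after either normalisation, TYROBP was 0.414 with the component and 0.155 with the percentage, and VSIG4 was 0.083 and 0.049. The covariates with the percentage were chosen after seeing the data. The causes were not tested.

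With 1 tumour left out, M minus NM ran from -0.025 to 0.054 for CD14, -0.096 to 0.039 for AIF1, -0.147 to 0.225 for TYROBP and -0.158 to 0.049 for VSIG4. Golden Retriever minus other ran from -0.05 to 0.081 for MSR1. Cross breed minus other ran from -0.035 to 0.009 for CD163, -0.029 to 0.129 for the C1Q cluster and -0.036 to 0.094 for MSR1. Replicate numbers did not pair the tumours, since the deviations of 10 same-numbered pairs had r from -0.41 to 0.12, and the replicate block called 0 clusters. The most variable cluster per gene was not run, as 7 genes had 1 cluster of their own and the other 3 shared 1. Signal over background and the number of arrays limit all differences.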
